A study of Mus musculus with 24 samples.

Results

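The mouse genes for heat shock proteins and DnaJ cochaperones were described across the 4 groups of an inactivity study of gastrocnemius muscle. A protein-coding gene was a member if its symbol began with Hspa, Hspb, Dnaja, Dnajb or Dnajc followed by a digit, began with Hsp90, or was Hspd1, Hspe1 or Hsph1. These were 72 of the 21928 protein-coding genes among 55416 genes counted, in 7 families, with 13 Hspa genes, 8 Hspb genes, 3 Hsp90 genes, the set of Hspd1, Hspe1 and Hsph1, 4 Dnaja genes, 13 Dnajb genes and 28 Dnajc genes. Membership was set by symbol and gene type and by no measured value. The rule itself was chosen with earlier results of these data known.

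Adult male and female mice of an unmodified inbred strain (written C56BL6J in the labels and C57BL/6J in the study's methods) were either sham controls or lived for 8 weeks in a small mouse cage (SMC), an acrylic box that restricts movement. There were 6 mice in each of 4 groups, sham and SMC of either sex. RNA of gastrocnemius, a mixed-fibre calf muscle, was depleted of ribosomal RNA and sequenced in 1 library per mouse, giving 23026627 to 36880413 gene counts per library. Mice for the initial SMC experiments were bought at an age of 8 weeks, and sham and SMC mice shared housing in some experiments, per the study's methods. The sources used here do not say which experiments these libraries came from, and ages at tissue collection and batches are not given in them.

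Heat shock proteins bind unfolded or partly folded proteins and keep them from aggregating. HSP70 proteins (most Hspa genes) do so in an ATP-driven cycle. J-domain proteins (Dnaja, Dnajb and Dnajc genes) start this cycle by handing over the client and stimulating ATP hydrolysis. HSP90 proteins mature kinases and steroid receptors. Small heat shock proteins (most Hspb genes) hold clients without ATP and are abundant on the myofilaments and Z-discs of striated muscle. The families here were set by symbol, so counts by family include any members that work otherwise. Hspd1 and Hspe1 form the chaperonin of the mitochondrial matrix, and Hsph1 is a nucleotide exchange factor of HSP70. The heat-inducible members are switched on by heat shock factor 1, which binds inverted repeats of the unit GAA, and the members of the endoplasmic reticulum (ER) by the unfolded protein response.

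Sequences upstream of 5 members are shown because the results below turn on these genes and because they hold the motifs by which the heat shock and the ER arms are told apart. All are from RefSeq on build GRCm38.p6, read 5′ to 3′ on the strand of the gene and ending at the base before an annotated start site. Capitals mark each match to the heat shock element searched (GAANNTTC or TTCNNGAA for 2 units, and for 3 units the first of these followed by NNGAA or the second followed by NNTTC) or, in Hspa5, to the ER stress element (CCAAT, then 9 bases of any kind, then CCACG). Both strands were searched, and each 3-unit match also holds 2-unit matches. The first are the stress-inducible HSP70 genes Hspa1a (chr17:34972157-34972406, minus strand) and Hspa1b (chr17:34959239-34959488, minus strand). They are followed by Hspb1 (chr5:135887669-135887918, plus strand), which encodes the small heat shock protein HSP25, and Hspa5 (chr2:34771840-34772089, plus strand), which encodes the ER chaperone BiP. The last is the stretch between the divergent start sites of Hspd1 and Hspe1, read on the Hspe1 strand (chr1:55087933-55088147, plus strand).
Hspa1a: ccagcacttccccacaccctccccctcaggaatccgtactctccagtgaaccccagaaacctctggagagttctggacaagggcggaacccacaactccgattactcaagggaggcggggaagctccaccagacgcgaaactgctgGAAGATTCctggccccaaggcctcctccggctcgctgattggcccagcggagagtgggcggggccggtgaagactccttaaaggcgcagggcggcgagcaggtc
Hspa1b: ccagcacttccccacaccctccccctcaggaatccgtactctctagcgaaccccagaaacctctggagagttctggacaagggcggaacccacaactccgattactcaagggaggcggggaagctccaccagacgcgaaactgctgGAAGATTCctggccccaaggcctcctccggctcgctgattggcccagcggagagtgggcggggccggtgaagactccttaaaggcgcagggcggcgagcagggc
Hspb1: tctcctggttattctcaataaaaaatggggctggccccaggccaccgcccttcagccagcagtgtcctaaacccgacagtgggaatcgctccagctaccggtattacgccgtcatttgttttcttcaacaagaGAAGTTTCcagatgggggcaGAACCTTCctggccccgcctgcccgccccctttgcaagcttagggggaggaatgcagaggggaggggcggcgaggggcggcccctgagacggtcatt
Hspa5: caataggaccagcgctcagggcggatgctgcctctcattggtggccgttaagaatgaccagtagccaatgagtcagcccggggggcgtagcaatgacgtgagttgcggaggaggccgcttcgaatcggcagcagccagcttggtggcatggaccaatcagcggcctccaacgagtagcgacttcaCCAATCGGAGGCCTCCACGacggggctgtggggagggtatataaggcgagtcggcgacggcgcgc
Hspe1: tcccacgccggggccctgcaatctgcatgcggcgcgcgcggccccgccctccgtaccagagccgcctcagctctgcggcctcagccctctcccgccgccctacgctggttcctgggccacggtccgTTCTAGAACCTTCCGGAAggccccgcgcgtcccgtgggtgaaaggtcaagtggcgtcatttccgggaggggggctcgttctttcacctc

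Hspa1a and Hspa1b lie on the same strand with start sites 12918 bases apart, and their shown upstream stretches differ at 3 of 250 positions. Their longest open reading frames, of 1926 and 1929 bases, differ at 8 positions beside a gap of 3 bases. How reads that match both genes were assigned, or whether they were counted at all, is not given in the sources used here. The split of counts between the genes is therefore uncertain. Their sum was tested as well, but it would also be too low if shared reads were left out. Each has 1 exact match to the 2-unit heat shock element in the stretch shown, which begins 104 bases before the start site. Hspb1 has 2, which begin 117 and 97 bases before its start site. Looser forms of the element were not searched, so more units may be present. The stretch between Hspd1 and Hspe1 holds 4 units in a row, which give 2 overlapping 3-unit matches beginning 89 and 84 bases before the Hspe1 start site, and the windows of both genes hold them.

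RefSeq windows of 300 bases (250 before and 50 after the start site) were found for 58 of the 72 members. A 3-unit heat shock element was in a window of 4 members, Dnajb6, Hspd1, Hspe1 and Hsph1, or 6.90% of the 58, against 0.662% of 27025 genes with a window. The matches in the windows of Hspd1 and Hspe1 are the same shared stretch and not separate occurrences. The 2-unit element was in 16 members, 27.6%, against 17% of all genes. The ER stress element was in 3 members, the ER chaperones Hspa5, Hsp90b1 and Dnajc3, 5.17% against 0.137% of all genes. These are matches of letters and not measured binding.

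Of the 72 members, 63 had enough counts to be tested. The untested 9, Hspb9, Dnajb3, Dnajb7, Dnajb8, Dnajb13, Dnajc5b, Dnajc5g, Dnajc6 and Dnajc22, averaged at most 0.514 in any group on the counts-per-million scale (CPM), where the library totals behind CPM were scaled by the trimmed mean of M-values (TMM). Over the 24 libraries the 72 members together took 0.360% to 0.680% of the counts, with means of 0.548% ± 0.0882 (SD, n = 6) in sham and 0.455% ± 0.0350 in SMC males, and 0.476% ± 0.0660 in sham and 0.463% ± 0.0368 in SMC females. On the TMM scale their summed CPM was 5159 ± 453 in sham and 4706 ± 300.2 in SMC males, and 4572 ± 463 in sham and 4883 ± 374 in SMC females, so the direction in females turned with the scale. The groups overlapped on both scales in both sexes, and these sums were not tested.

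Small heat shock proteins, HSP90 and constitutive HSP70 were the most abundant members. Per kilobase of exon, which allows levels of different genes to be compared, Hspb6 (HSP20) stood first with a mean of 299.8 CPM per kb over the 24 mice, followed by Hsp90ab1, the constitutive cytosolic HSP90, with 225 and Hspa8, the constitutive cytosolic HSP70, with 143. Hspb7 followed with 125, Hspb8, the partner of Bag3 in chaperone-assisted autophagy, with 108, Hspb1 with 80.5 and Hspa9, the mitochondrial HSP70, with 65.3 CPM per kb. The most abundant J-domain genes were Dnaja2 with 33.0 and Dnajb5 with 30.2 CPM per kb, and Dnajc27 led the Dnajc genes with 13.5. As counted, the stress-inducible genes were low, Hspa1a at 2.59, Hspa1b at 1.97 and Dnajb1, the main J-domain partner of inducible HSP70, at 1.68 CPM per kb. The levels of Hspa1a and Hspa1b would be understated if reads that match both genes were not counted. Summed over the 8 genes, the Hspb family reached 1532 ± 386 CPM (SD, n = 6) in sham and 1262 ± 249.1 CPM in SMC males, and 1177 ± 308 CPM in sham and 1479 ± 166 CPM in SMC females (these sums were not tested). The means were lower with SMC in males and higher in females, and the sums of the sham and SMC groups overlapped in both sexes.

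**Figure D1:**
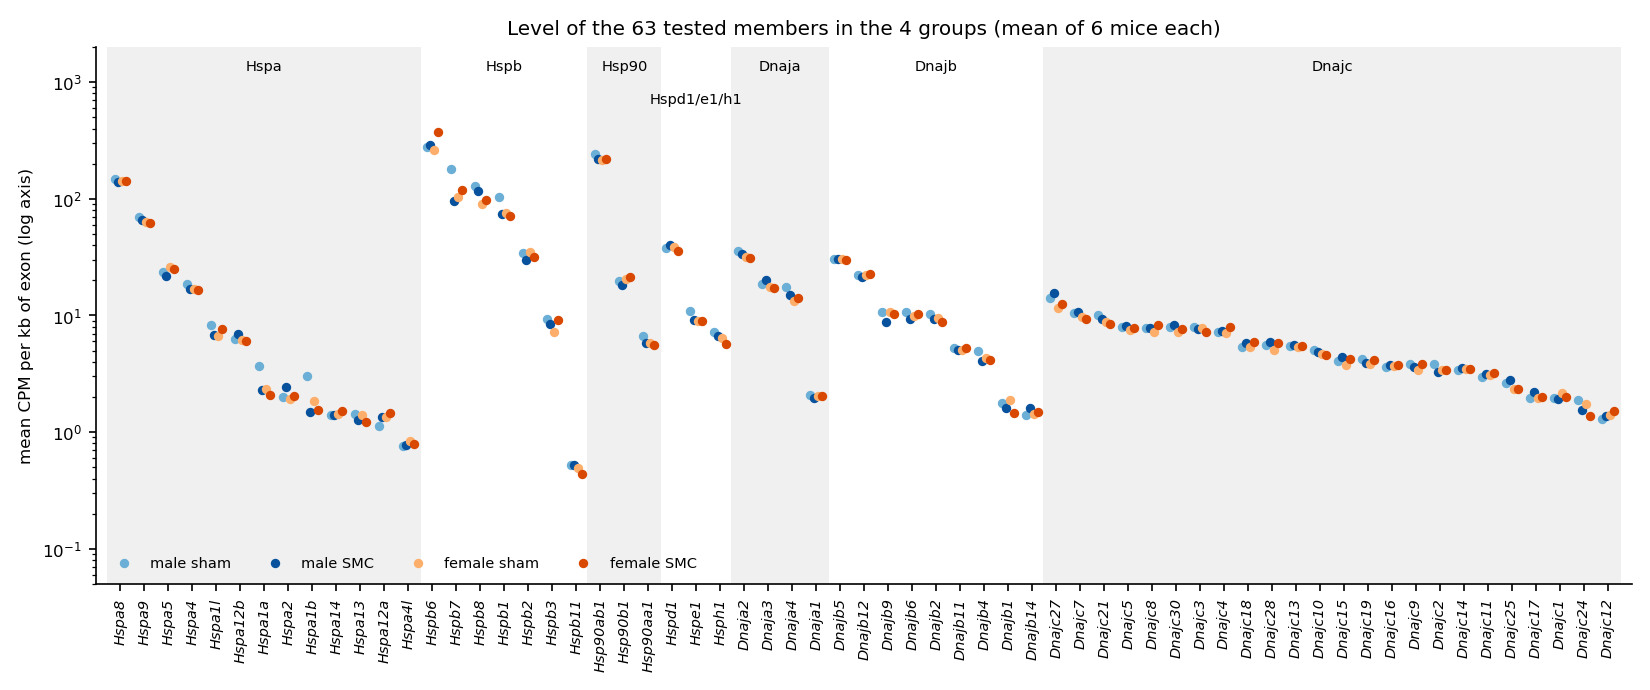
Mean level of each of the 63 tested members in the 4 groups (points, 6 mice each), in CPM per kb of exon on a log axis, ordered by level within each family. Hspb6, Hsp90ab1 and Hspa8 were the highest, and for most members the 4 group means lay close together.

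Other cell types and fibres were looked at before the comparisons. Skeletal muscle markers (9 genes) summed to between 72503 and 156582 CPM in every library, as the tissue label says. Male sham replicate 4 and female sham replicate 7 stood apart with slow fibre scores, the mean log2 CPM of 10 slow fibre genes such as Myh7, of 1.96 and 1.67, while the other 22 libraries lay between 5.42 and 8.08. Smooth muscle markers (5 genes) were higher with SMC, summing to 136 to 174 CPM in male sham against 204 to 326 in male SMC, and to 144 to 207 in female sham against 180 to 289 CPM in female SMC. The part of smooth muscle in the results below was not tested. Fits with the slow fibre score as a term and fits without these 2 libraries were also run, and values from them stand beside several of the results. In a bulk sample, fewer cells of a type and less RNA per cell cannot be told apart.

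The first question was what 8 weeks of SMC did to these genes in males. No member passed an adjusted p of 0.05 (edgeR quasi-likelihood test, Benjamini-Hochberg over 16408 genes), as did 0% of all genes tested. DESeq2 and limma with library weights also called 0 members, beside 0.811% and 0.567% of all genes. With the slow fibre score as a term 1 member (Hspb7) and 0.0792% of all genes passed. At an unadjusted p under 0.05 there were 10 of 63 members, 2 higher and 8 lower with SMC, where 11% of all genes met that level, 5.41% higher and 5.59% lower. The log2 fold change was above 0 for 24 members and below 0 for 39, with a median of -0.06, while 49.1% of all genes were above 0 with a median of -0.00. Leaving out 1 library in turn moved the members' median by over 1.5 times for 4 of them. It was -0.09 once male sham replicate 5 was dropped, -0.03 once replicate 6 was, and -0.08 for male sham replicate 1 and for male SMC replicate 13. Scaling by library totals alone moved the median of all genes to -0.13 and left 7 members above 0 and 56 below, of which 38 were below the shifted median. By family, 6 of 7 Hspb, 8 of 9 Dnajb, 9 of 13 Hspa, 3 of 4 Dnaja and 3 of 3 Hsp90 genes were below 0, while 16 of 24 Dnajc genes were above 0, 3 of 24 under library totals and 16 again relative to the shifted median. For Dnajb the count was 6 of 9 with limma, with the slow fibre score as a term and without the 2 libraries low in it, where its median went from -0.16 to -0.09, -0.11 and -0.09.

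Hspb1 lay between 73.9 and 153 CPM in male sham mice (median 91.1) and between 62.9 and 86.4 CPM in male SMC mice (median 76.5). Male sham replicates 1 and 6 were the highest, at 153 and 145 CPM, and 2 of the other sham mice lay inside the SMC range. The log2 fold change was -0.48 ± 0.17 (SE), with an unadjusted p of 0.0108 and an edgeR adjusted p of 0.294.

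Hspb7, a small heat shock protein found mainly in heart and skeletal muscle, lay between 173 and 769 CPM in male sham mice (median 471) and between 83.7 and 385 CPM in male SMC mice (median 268). The groups overlapped, since male sham replicate 4, with the low slow fibre score, lay at 173 CPM. Its log2 fold change was -0.89 ± 0.36, with an unadjusted p of 0.0198 and an edgeR adjusted p of 0.349. Once the slow fibre score entered the fit it was -1.14 with an adjusted p of 0.041, and without male sham replicate 4 and female sham replicate 7 it was -1.08 with an adjusted p of 0.15. Leaving out male sham replicate 1 instead gave an unadjusted p of 0.060.

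Hspa1b lay between 1.70 and 23.8 CPM in male sham mice (median 5.14), but only between 3.39 and 6.37 CPM in male SMC mice (median 3.77). Male sham replicates 1 and 6 were again the highest, at 12.4 and 23.8 CPM, and 2 of the other sham mice lay below every SMC mouse. The log2 fold change of Hspa1b was -1.04 ± 0.49, with an unadjusted p of 0.0431 and an edgeR adjusted p of 0.434. Without male sham replicate 6 it was -0.39 with an unadjusted p of 0.38, so its size rests on that mouse. Hspa1a, its near copy, had a log2 fold change of -0.68 ± 0.41 (edgeR adjusted p = 0.572), and the summed counts of both genes gave -0.83 ± 0.44 (edgeR adjusted p = 0.499).

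Dnajb9 (ERdj4), an ER J-domain protein induced by the unfolded protein response, had the smallest p of the members in males. It lay between 23.2 and 31.1 CPM in male sham mice (median 27.2) and between 20.4 and 25.0 CPM in male SMC mice (median 22), with some overlap. The log2 fold change was -0.29 ± 0.08, with an unadjusted p of 0.00151 and an edgeR adjusted p of 0.179. The ER chaperones it works with had -0.11 ± 0.11 for Hspa5 and -0.11 ± 0.10 for Hsp90b1, both with unadjusted p above 0.05.

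Hspe1, the cochaperonin of mitochondrial Hspd1, lay between 13.4 and 17.7 CPM in male sham mice (median 16.1) and between 12.2 and 16 CPM in male SMC mice (median 13), with overlap. Its log2 fold change was -0.25 ± 0.09 (edgeR adjusted p = 0.305), whereas Hspd1, whose start site lies next to it, had 0.10 ± 0.13. Exons of Hspe1 overlap Hspd1 on the opposite strand, which was counted at 101 CPM on average. Whether counting used the strand is not given in the sources used here, so reads of Hspe1 and Hspd1 may not be told apart. Hspb2 had -0.22 ± 0.08, Dnajb6 -0.20 ± 0.08 and the ribosome-associated Dnajc2 -0.22 ± 0.09, each with an unadjusted p under 0.05. The 2 members with higher values at that level were Hspa12a, a distant HSP70 relative, with 0.27 ± 0.10 and Dnajb14, an ER membrane J-domain protein, with 0.20 ± 0.10. Hspa12a ranged from 7.73 to 13.3 CPM in sham and from 11.1 to 13.9 CPM in SMC mice, and Dnajb14 from 20.4 to 25.1 and from 21 to 31.4 CPM.

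**Figure D2:**
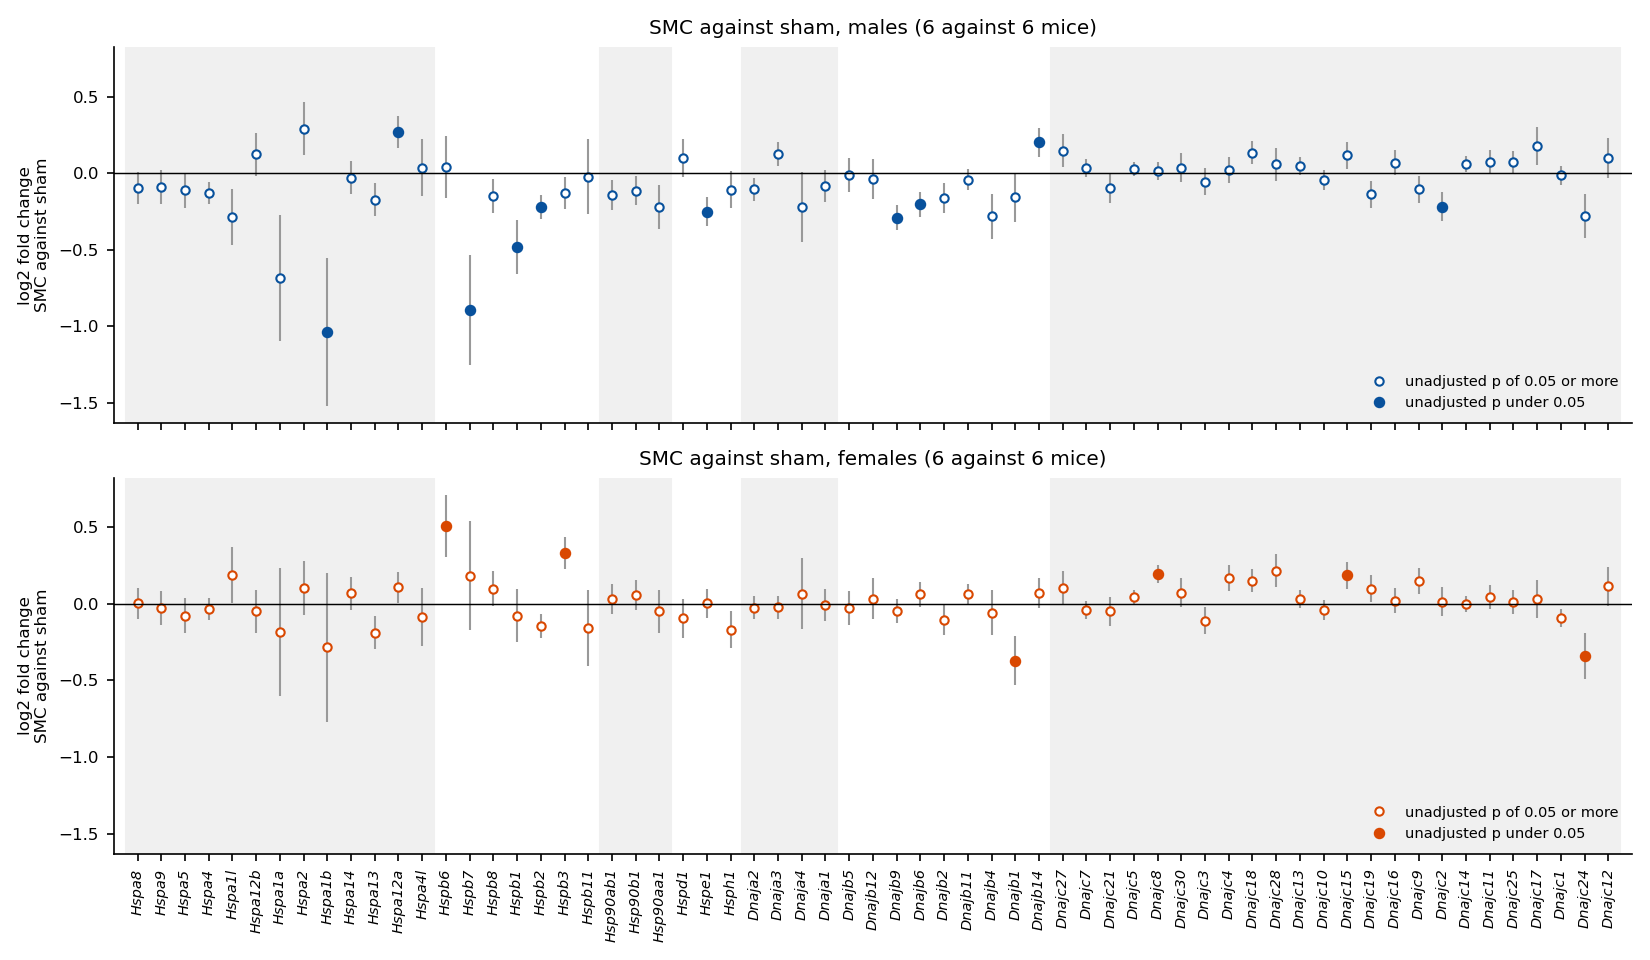
Log2 fold change of SMC against sham for each tested member, males above and females below, with bars of 1 SE and filled points for an unadjusted p under 0.05. In males 39 of 63 points lay below 0, among them the widest bars of Hspa1a, Hspa1b and Hspb7, and in females 28 did.

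The abundant constitutive chaperones had small fold changes in males. Hspa8 lay between 538 and 724 CPM in sham and between 542 and 655 CPM in SMC mice, and its log2 fold change was -0.09 ± 0.10 with a 95% confidence interval from -0.30 to 0.11. Hsp90ab1 had -0.14 ± 0.10, Hsp90aa1, the inducible HSP90, -0.22 ± 0.14, Hspa9 -0.09 ± 0.11, Dnaja1 -0.08 ± 0.10 and Hsph1 -0.11 ± 0.12. None of these reached an unadjusted p of 0.05.

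In females the same comparison again called no member at an adjusted p of 0.05. That held for edgeR, DESeq2 and limma, and of all genes 0.341% passed it with edgeR (0.122% higher and 0.219% lower), 1.63% with DESeq2 and 0.0975% with limma. At an unadjusted p under 0.05 there were 6 members, 4 higher and 2 lower with SMC, against 12.5% of all genes, 5.02% higher and 7.47% lower. Of the 63, 35 were above 0 and 28 below, with a median log2 fold change of 0.01, while 47.6% of all genes were above 0 with a median of -0.01. Library totals moved the median of all genes to -0.15 and left 10 members above 0 and 53 below, of which 25 were below the shifted median. Of the 7 Hspb genes 4 were above 0 (3 under library totals, 4 relative to the shifted median), and of the 24 Dnajc genes 18 (6 under library totals, 18 relative to it). With the slow fibre score as a term 31 members were above 0 and 32 below, with a median of -0.01, and the median of the Hspb genes turned from 0.10 to -0.10 (-0.02 without the 2 libraries low in the score), with 3 of 7 above 0 in both fits. The members' median was also -0.01 without female sham replicate 8 or female SMC replicate 24, so its sign in females changed with the fit.

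Hspb6, the most abundant member per kb, lay between 347 and 830 CPM in female sham mice (median 604) and between 722 and 968 CPM in female SMC mice (median 883). The lowest sham mouse, at 347 CPM, was replicate 7, the library with the lowest slow fibre score. The log2 fold change was 0.51 ± 0.20, with an unadjusted p of 0.0198 and an edgeR adjusted p of 0.280. It was 0.40 without the 2 libraries low in slow fibre genes and 0.29 once the slow fibre score entered the fit, with unadjusted p of 0.027 and 0.013.

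Hspb3, a muscle small heat shock protein that pairs with Hspb2, lay between 4.46 and 6.98 CPM in female sham mice (median 5.72) and between 5.98 and 8.15 CPM in female SMC mice (median 7.39). The ranges overlapped by about 1 CPM. Its log2 fold change was 0.33 ± 0.11, with an unadjusted p of 0.00457 and an edgeR adjusted p of 0.154. Dnajc8, a J-domain protein associated with the spliceosome, lay between 16.4 and 21.2 CPM in sham and between 20.3 and 22.2 CPM in SMC females, which is a difference of 0.19 ± 0.06 on the log2 scale (edgeR adjusted p = 0.144), the smallest adjusted p of the members. Dnajc15, which acts at the mitochondrial import motor, had 0.19 ± 0.09 (edgeR adjusted p = 0.384).

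Among the heat-inducible genes, Dnajb1 lay between 3.9 and 8.08 CPM in female sham and between 3.60 and 5.53 CPM in female SMC mice. Its log2 fold change was -0.37 ± 0.16 (edgeR adjusted p = 0.330) and -0.27 with an unadjusted p of 0.105 once female sham replicate 8 was left out. Dnajc24, which takes part in diphthamide synthesis, had -0.34 ± 0.15 (edgeR adjusted p = 0.331). The other inducible genes had wide intervals in females: Hspa1a had -0.19 ± 0.42 and Hspa1b -0.28 ± 0.49. For Hspb1 the 95% confidence interval ran from -0.42 to 0.27, and for Hspa8 from -0.20 to 0.20.

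**Figure D3:**
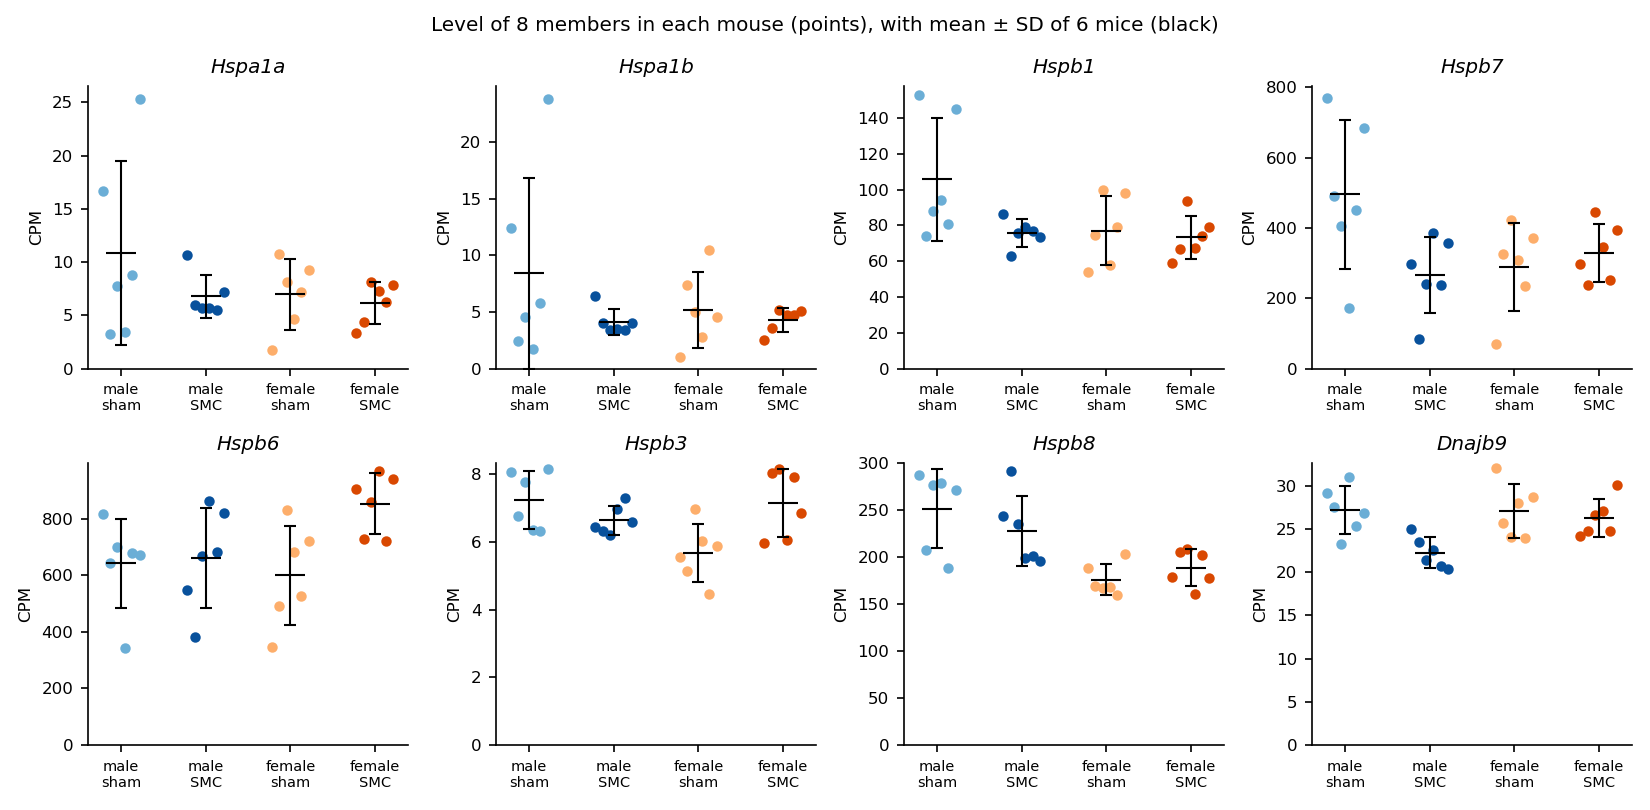
CPM of 8 members in each mouse (points) of the 4 groups, with the mean and SD of 6 mice in black. Male sham mice reached 25.4 CPM for Hspa1a, 23.8 for Hspa1b and 153 for Hspb1, female SMC mice lay at 722 CPM or more for Hspb6, and male sham mice lay mostly above female sham mice for Hspb8.

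Whether males and females responded differently was tested as the male minus the female log2 fold change. No member passed an adjusted p of 0.05 with edgeR, DESeq2 or limma, where 0% of all genes did so with edgeR, 0.00609% with DESeq2 and 0% with limma. An unadjusted p under 0.05 was met by 5 members, all with a lower value in males, where 2.13% of all genes met it in that direction and 5.13% in either. Hspb3 differed by -0.46 ± 0.15 (unadjusted p = 0.00522, edgeR adjusted p = 0.926) and Hspb7 by -1.08 ± 0.50 (unadjusted p = 0.0429). Dnajb6 differed by -0.26 ± 0.11, Dnajb9 by -0.24 ± 0.11 and Dnajc8 by -0.18 ± 0.09. Over the members 40 of 63 differences were below 0 with a median of -0.06, while 51.6% of all genes were above 0 with a median of 0.01, and 6 of the 7 Hspb genes were below 0 with a median of -0.41. The members' median was -0.03 without male sham replicate 3, -0.04 without female sham replicate 8 or 11, and between these and -0.09 without each of the other libraries. A sex difference of the SMC response was therefore not shown for any single member.

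The responses of both sexes were then averaged. No member passed an adjusted p of 0.05 with edgeR or DESeq2, while 2.36% of all genes tested did so with edgeR and 4.74% with DESeq2. Limma with library weights called 2 of 63 members, Hspb2 and Dnajc18, beside 3.3% of all genes. The slow fibre score as a term gave 3 members, Hspb2, Hspb7 (-0.63) and Dnajc18, beside 4.47% of all genes, and leaving out the 2 libraries low in the score gave Dnajc18 alone, beside 3.18%. These counts of members lay near or below the share of all genes. At an unadjusted p under 0.05 there were 10 members, 4 higher and 6 lower, against 17.5% of all genes, 7.9% higher and 9.65% lower. The log2 fold change was above 0 for 26 members and for 47.6% of all genes. The smallest adjusted p was that of Hspb2, with a log2 fold change of -0.18 ± 0.06 and an edgeR adjusted p of 0.0794. In males Hspb2 ranged from 23.9 to 32.9 CPM in sham and from 21.9 to 28.2 CPM in SMC mice, and in females from 26.4 to 35.0 and from 25.2 to 27.3 CPM. Hspb2 overlaps Cryab on the opposite strand, which was counted at 364 CPM on average. The sources used here do not say whether reads were counted by strand, so reads of these genes may not be told apart. The same limit holds for other named members with an overlap on the opposite strand, such as Hspe1. Among these, Dnaja1 averaged 17.5 CPM beside Smu1 at 25.8 CPM, and Dnajc1 23.4 CPM beside Mllt10 at 33.1 CPM.

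The other lower members were Dnajc24 with -0.31 ± 0.10, Hspb1 with -0.28 ± 0.12, Dnajb1 with -0.26 ± 0.11, Hspa13, an ER HSP70 relative, with -0.18 ± 0.08 and Dnajb9 with -0.17 ± 0.06. The higher ones were Hspa12a with 0.19 ± 0.07, Dnajc15 with 0.15 ± 0.06, Dnajc18 with 0.14 ± 0.05 and Dnajc8 with 0.11 ± 0.04. None of these 9 passed with edgeR in all libraries, and their edgeR adjusted p ranged from 0.110 to 0.232. Library totals moved the median of all genes to -0.14, left 8 members above 0 and 55 below, called 12 members beside 11.3% of all genes, and put Dnajc8 at -0.03.

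Sham mice of both sexes were compared to describe how the members differed between the sexes without SMC, and these are the same sham libraries as in the SMC comparisons. Here 1 of 63 members passed an adjusted p of 0.05, where 1.97% of all genes tested did, 0.835% higher and 1.14% lower in males. It was Hspb8, at 188 to 287 CPM in male sham mice (median 274) and 160 to 203 CPM in female sham mice (median 168). A single male, at 188 CPM, lay inside the female range. The log2 difference, male minus female, was 0.51 ± 0.11 with an unadjusted p of 0.000116 and an edgeR adjusted p of 0.0161. The adjusted p lay between 0.00309 and 0.0406 when each library was left out in turn, and at 0.085 when only the 12 sham libraries were fitted, a fit that called 0.371% of all genes. Limma also called Hspb8 alone (2.24% of all genes), DESeq2 called Hspb3 with it (3.5% of all genes), and the slow fibre score as a term Hspb7 and Hspe1 with it (4.22% of all genes). In SMC mice, Hspb8 lay between 195 and 291 CPM in males and between 160 and 209 CPM in females.

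Of the 63 members, 47 were higher in male than in female sham mice and 16 lower, with a median log2 difference of 0.10, while 49.6% of all genes were higher with a median of -0.00. Library totals made it 54 higher and 9 lower. All 4 Dnaja genes and 6 of 7 Hspb genes were above 0, the Hspb genes with a median of 0.35. At an unadjusted p under 0.05 there were 11 members, 9 higher and 2 lower in males, against 15.5% of all genes, 6.23% higher and 9.23% lower. Besides Hspb8, the higher ones with the largest differences were Hspb7 with 0.78 ± 0.36, Hspb1 with 0.46 ± 0.17, Hspb3 with 0.35 ± 0.11 (edgeR adjusted p = 0.0857) and Hspe1 with 0.28 ± 0.09 (edgeR adjusted p = 0.115). Hspa12a was lower in males by -0.27 ± 0.10 and Dnajc1, an ER membrane J-domain protein, by -0.14 ± 0.06. In none of the comparisons between groups of 6 did a member's CPM fail to overlap (0 of 63 each). Over all genes this was so for 0.902% with SMC in males (0.591% higher, 0.311% lower), 1.03% with SMC in females (0.396% higher, 0.634% lower) and 1.13% between sham males and females (0.609% higher, 0.524% lower).

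Members differed widely in how much single mice varied within a group. The pooled SD of log2 CPM was 0.95 for Hspa1b, larger than that of 98.1% of the genes tested, 0.83 for Hspa1a, 0.75 for Hspb7, 0.45 for Dnaja4, 0.42 for the low Hspb11 and 0.39 for Hspb6. At the other end stood Dnajc5, the cysteine string protein of synaptic vesicles, with 0.06. For Hspa1b the SD was 1.41 in male sham and 1.15 in female sham mice against 0.34 in male SMC and 0.40 in female SMC mice. Hspa1a had SDs of 1.19 and 0.96 in the sham groups against 0.37 and 0.52 in the SMC groups of males and females. A wider spread in sham mice was not particular to these genes. Hspb1 had SDs of 0.45 and 0.37 in the sham groups against 0.15 and 0.23 in the SMC groups of males and females. For Hsp90ab1 these were 0.24 and 0.18 against 0.09 and 0.10. In Hspa12b the spread was instead wider with SMC, at 0.11 and 0.21 in sham against 0.32 and 0.35. The difference in spread between sham and SMC was not tested. The libraries low in slow fibre genes, male sham replicate 4 and female sham replicate 7, had the lowest Hspa1b of their groups. The SDs of the sham groups above include them. Without both, the pooled SD was 0.74 for Hspa1b, 0.67 for Hspa1a and 0.52 for Hspb7. For Hspb11, Dnaja4 and Hspb6 it was 0.43, 0.32 and 0.30.

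Whether other stress-inducible genes went with Hspa1b from mouse to mouse was examined over 24 mice as deviations from the group mean in log2 CPM, in 9 relations. Hspa1a had a Pearson r of 0.942 and a Spearman rho of 0.923 (two-sided permutation p = 2e-05 and 1e-05, the latter the smallest that 100000 resamples can give, adjusted p = 0.00018 and 9e-05). This pair shares sequence and may share reads. Hspb1 had r = 0.721 and rho = 0.772 (permutation p = 0.00364 and 0.00039, adjusted p = 0.0164 and 0.00175), and Hsp90aa1 r = 0.563 and rho = 0.545 (permutation p = 0.00974 and 0.0129, adjusted p = 0.0292 and 0.0387). Without the 2 mice farthest from the median, female sham replicate 7 and male sham replicate 6, r was 0.901, 0.609 and 0.50 for these genes. With libraries left out, a relation was judged by the adjusted p of Pearson's r alone. Without female sham replicate 7 alone, neither Hspb1 nor Hsp90aa1 passed an adjusted p of 0.05. Hsp90aa1 also did not pass without male sham replicate 1, 4 or 6, nor without both libraries low in slow fibre genes. By Pearson's r, only the relation with Hspa1a therefore passed whichever library was left out. Within the 4 groups r ranged from 0.398 to 0.813 for Hspb1 and from 0.343 to 0.867 for Hsp90aa1.

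The remaining 6 relations did not pass an adjusted p of 0.05. They were Hspa8 with r = 0.358, Dnaja1 with 0.341, Hspa5 with 0.311, Dnajb1 with 0.267, Hsph1 with 0.176 and Hspa9 with 0.138, with permutation p adjusted for Pearson's r from 0.217 to 0.550 and for Spearman's rho from 0.183 to 0.733. Scaling by library totals alone brought 7 of the 9 past the threshold for Pearson's r.

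**Figure D4:**
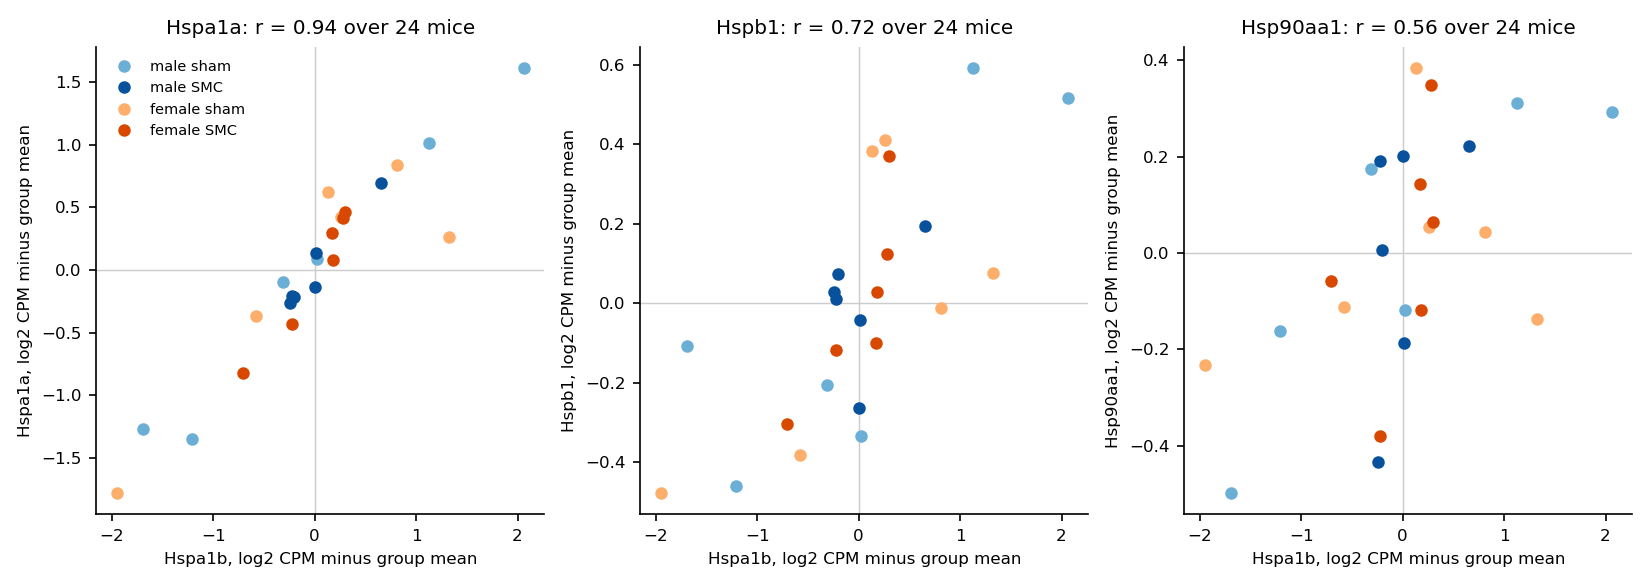
Deviation of each mouse from its group mean in log2 CPM, Hspa1b on the x axis against Hspa1a, Hspb1 and Hsp90aa1 on the y axes, coloured by group. The points rise together most closely for Hspa1a (r = 0.942), then for Hspb1 (0.721) and Hsp90aa1 (0.563), and sham mice take both ends of the Hspa1b axis.

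Hspb6, Hspb7 and Dnaja4, a cytosolic J-domain protein, were low in the libraries with the lowest slow fibre scores. These members were chosen for display, and a correlation of the score with each member was not tested. In male sham replicate 4, Hspd1 was also low, at 69.5 CPM. Dnaja2, Dnajb6 and Dnajb12 were instead the highest of the male sham mice there, at 122, 84.5 and 114 CPM. Hspb6 was 344 CPM in male sham replicate 4, 347 CPM in female sham replicate 7 and 382 CPM in male SMC replicate 14, the 3 libraries with the lowest slow fibre scores, and at least 492 CPM in the other libraries. Hspb7 was 173, 69.5 and 83.7 CPM in the same 3 libraries and at least 236 CPM in the others, and Dnaja4 was 24.3, 31.2 and 35.9 CPM, with female sham replicate 8 at 35.8 CPM. All 10 slow fibre genes were above 0 for SMC in females and 6 of 10 in males, and 0 of them passed the test in either sex (edgeR, 0 also at an unadjusted p under 0.05). The summed CPM of the list ran from 76.4 to 3212 in female sham and from 1536 to 4590 in female SMC mice.

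**Figure D5:**
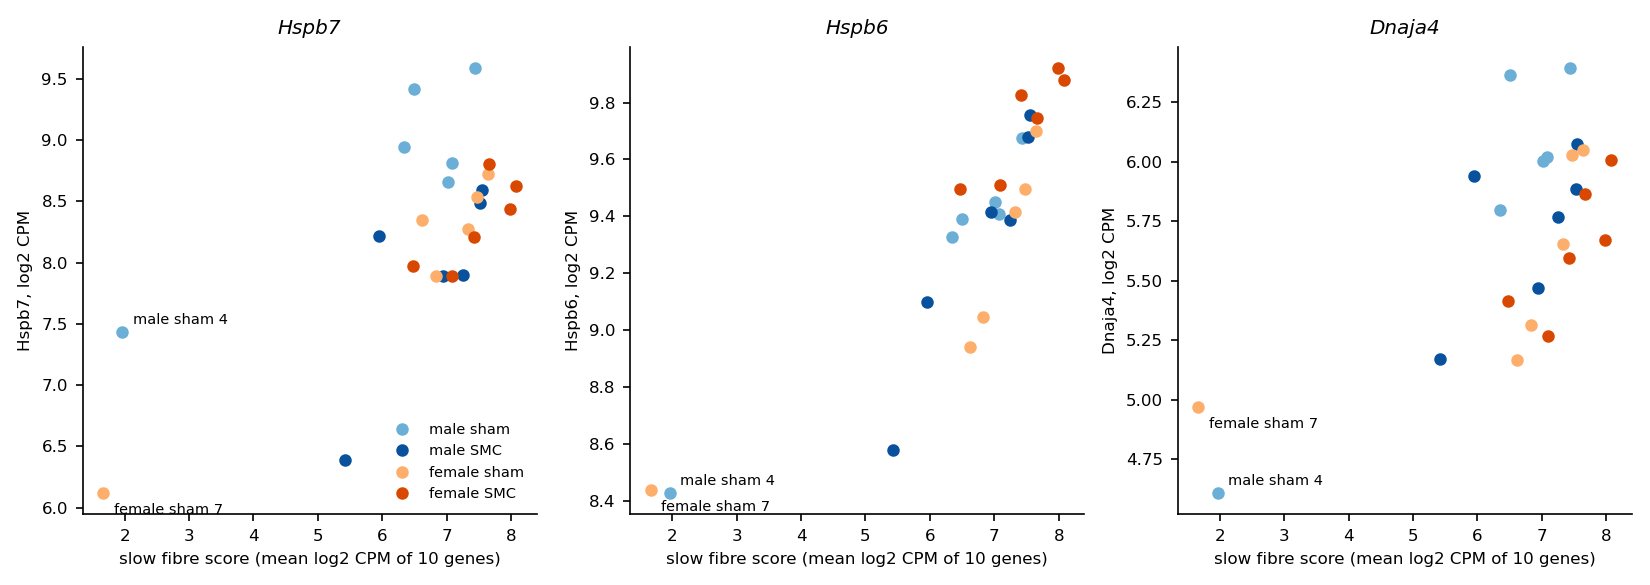
Log2 CPM of Hspb7, Hspb6 and Dnaja4 in each of the 24 libraries against the slow fibre score, the mean log2 CPM of 10 slow fibre genes, coloured by group. Male sham 4 and female sham 7, with scores of 1.96 and 1.67, lay at the bottom of the Hspb6 and Dnaja4 plots and among the lowest 3 of the Hspb7 plot.

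The regulators and partners of the members were read from lists chosen by function. Of the heat shock factor list 4 of 5 genes were tested and 0 passed an adjusted p of 0.05 in any comparison (edgeR), with 1 at an unadjusted p under 0.05 for SMC in each sex. Hsf1, the main heat shock factor, averaged 39.4 CPM in sham and 42.5 CPM in SMC males, and 38.8 and 42 CPM in females. Hsf2, a second factor that binds the same elements, was lower with SMC in males by -0.33 ± 0.11 (unadjusted p = 0.00527, edgeR adjusted p = 0.255) and by -0.12 in females.

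Of the cytosolic chaperonin and prefoldin list, whose products fold actin and tubulin, 14 of 14 genes were below 0 in males and 12 of 14 in females, with medians of -0.13 and -0.05. No gene of it passed within a sex (edgeR, 4 in males and 1 in females at an unadjusted p under 0.05), and 1 did averaged over the sexes, Cct4, with -0.22 ± 0.05 (edgeR adjusted p = 0.0260). Cct4 averaged 55.3 CPM in sham and 45.8 CPM in SMC males, and 51.1 and 45.6 CPM in females. Against 1.33% of all genes called lower in that average, this was 1 of 14.

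Of 19 HSP90 cochaperones 2 were lower with SMC averaged over the sexes at an adjusted p under 0.05. Fkbp5, an immunophilin of the glucocorticoid receptor complex and itself a glucocorticoid target, fell by 1.41 ± 0.30 on the log2 scale (edgeR adjusted p = 0.0142), from a mean of 95.7 to 37.8 CPM in males and from 114 to 40.9 CPM in females. Of all genes 1.33% were called lower in that average. Cdc37l1, a relative of the kinase cochaperone Cdc37, fell by 0.25 ± 0.06 (edgeR adjusted p = 0.0358). Neither passed within one sex, where the lowest adjusted p of the list was 0.227 in males and 0.0511 in females. Stip1, Cdc37, Fkbp4 and Unc45b, other core partners of HSP90, had unadjusted p above 0.05 in all comparisons.

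Among 12 mitochondrial folding genes, 6 of them members, Clpx, the chaperone subunit of the matrix protease, was lower with SMC averaged over the sexes by -0.26 ± 0.06 (edgeR adjusted p = 0.0166), with -0.25 in males and -0.27 in females. It was 1 of 12, against the 1.33% of all genes called lower. No gene of the 14 on the ER list, 5 of them members, passed for SMC (edgeR, 2 in males, 0 in females and 2 in the average at an unadjusted p under 0.05). Between the sham sexes Xbp1, a transcription factor of the unfolded protein response, was lower in males by -0.39 ± 0.08 (edgeR adjusted p = 0.00976), 1 of 14 against the 1.14% of all genes called lower in sham males. Of 13 HSP70 partners, 0 passed for SMC (edgeR, 0 in males and 2 in females at an unadjusted p under 0.05) and 1 between the sham sexes, the ubiquitin ligase Stub1, with -0.22 ± 0.06 (edgeR adjusted p = 0.0476), 1 of 13 against the same 1.14%. Of 7 other small heat shock and J-domain genes, 5 were tested and 0 passed (edgeR, 1 at an unadjusted p under 0.05 with SMC in females), and Cryab, the most abundant, averaged 429 CPM in sham and 307 CPM in SMC males, and 342 and 377 CPM in females.

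The 4 members with a 3-unit heat shock element had a median log2 fold change of -0.15 in males and -0.05 in females, against -0.04 and 0.01 for the 47 tested members that had a window without it. The 3 members with an ER stress element had -0.11 and -0.08. These sets are small, Hspd1 and Hspe1 share the same stretch, and the medians are given as descriptions.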

How the data were processed

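Total RNA was isolated with a Direct-zol kit and strand-specific libraries were prepared after ribosomal RNA depletion, per the labels. The authors deposited 1 table of raw read counts per Ensembl gene, with no normalization, for all 24 libraries, and the submitters' processing notes name cutadapt 1.16, STAR 2.7.9a, featureCounts 1.6, DESeq2 1.34.0 and build GRCm39, while neither the gene annotation nor whether counting used the strand is given in the sources used here. Each library is 1 mouse by the labels, and groups were taken from the sample titles. No library pair within a group agreed within sampling noise (chi-square per degree of freedom of 9.77 to 213 over 60 pairs). The largest value was 213 in male sham and 158 in female sham, against 74.0 in male SMC and 77.1 in female SMC.

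Symbols were matched to 52083 of 55416 Ensembl genes, and gene types and exon lengths came from GENCODE M21. Genes without a symbol held 0.361% of the counts. A total of 3 genes with matching symbols that were not typed as protein-coding were left out. Genes passing edgeR's filterByExpr (16408) were tested with edgeR 4.0.16 (R 4.3.3) by the quasi-likelihood F-test over 4 group means from all 24 libraries, with TMM factors of 0.854 to 1.32 and Benjamini-Hochberg adjustment over all genes tested, and a gene was called at an adjusted p under 0.05. For 5 comparisons, contrasts took the SMC effect of each sex, the male minus the female effect, the mean of both, and male minus female sham. The SE of an edgeR fold change was taken as its absolute log2 value divided by the square root of the F statistic. Intervals of 95% are the fold change ± the normal quantile times this SE. They are therefore narrower than the F-test, with its limited degrees of freedom, would give. The fitting steps were tested on simulated counts with known changes. Alternatives were DESeq2 1.42.0, limma 3.58.1 with voom library weights, library totals alone, a stricter and no count filter, only the 12 libraries compared, the slow fibre score in the fit, leaving out male sham replicate 4 and female sham replicate 7, and leaving out each library in turn. Testing the summed counts of Hspa1a and Hspa1b was added after the data were seen. Depth was 23026627 to 36880413 counts per library, and the common biological coefficient of variation between mice was 0.206, which limits the precision of a fold change. Correlations used Python 3.11.15 and 100000 permutations.

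Genes were named if they passed the test in any comparison, were among the 5 largest rises or falls of a comparison at an unadjusted p under 0.05, were among the 3 highest of a family per kilobase, or were on a set list of core chaperones (Hspa1a, Hspa1b, Hspa5, Hspa8, Hspa9, the Hsp90 genes, Hspb1, Hspb6, Hspb7, Dnajb1 and Dnaja1), and of other folding genes those that passed or led their list. Hspb11, Dnajc2, Dnajc5 and the untested members were named for completeness after their values were seen, and Dnajc3 for its promoter match. The members, gene lists and tests were chosen with earlier results of these data known. Promoter windows came from RefSeq on GRCm38.p6 and were joined by symbol only, with no coordinate moved between builds.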

Additional observations from a re-analysis of the deposited data

Results flagged for a closer look

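In 14 of 148 groups of 6 mice, 1 mouse stood apart from the other 5 by Dixon's ratio, over the 37 members named by rule, and chance gives about 1 in 20 groups. Over all 63 tested members it was 17 of 252. Male sham replicate 4, the library low in slow fibre genes, gave 5 of the 14. Its Hspb6 lay at 344 CPM against 643 to 817 in the other male sham mice, and its Hspd1 at 69.5 against 98.4 to 109 CPM. It was highest for Dnaja2, at 122 against 102 to 107 CPM, for Dnajb6, at 84.5 against 57.2 to 64.6 CPM, and for the ER membrane gene Dnajb12, at 114 against 56.9 to 75.8 CPM.

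Male SMC replicate 13 was highest for both inducible HSP70 genes, with Hspa1a at 10.7 against 5.49 to 7.23 CPM and Hspa1b at 6.37 against 3.39 to 4.06 CPM. Female SMC replicate 24 was highest for both main ER chaperones, with Hspa5 at 143 against 91.2 to 107 CPM and Hsp90b1 at 109 against 75.2 to 85.6 CPM. Hsph1 was low in male SMC replicate 17, at 30.9 against 49.3 to 54.3 CPM, and Hspe1 high in female SMC replicate 22, at 16.8 against 11.8 to 13.6 CPM. In female sham mice, Hspa8 was 790 CPM in replicate 12 against 560 to 594, Hspb2 was 35 CPM in replicate 10 against 26.4 to 29.1, and Hspa12a was 14.2 CPM in replicate 8 against 11.4 to 12.4.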

How the results depend on the processing

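No paired analysis was possible because the groups share no replicate numbers. No member passed for SMC in males under any alternative except the slow fibre score in the fit, which called 1 (Hspb7), and none passed in females or for the difference between the sexes. For the average over the sexes, where edgeR called 0, library totals alone called 12 members, all lower, beside 1861 of 16408 genes, limma with library weights 2 (Hspb2 and Dnajc18) beside 541, the slow fibre score 3 (Hspb2, Hspb7 and Dnajc18) beside 733, and leaving out both libraries low in slow fibre genes 1 (Dnajc18) beside 526 of 16557. Between the sham sexes, where edgeR called 1 (Hspb8), DESeq2 called 2 (with Hspb3) beside 575 genes, the slow fibre score 3 (with Hspb7 and Hspe1) beside 692, and the fit of only the 12 libraries 0 beside 58 of 15650. Of the relations with Hspa1b, 7 passed for Pearson's r under library totals. The causes of these changes were not tested, and the shift of all genes under library totals is given as a description.

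When each of 24 libraries was left out in turn, the number of members called stayed at 0 for SMC in males, in females and for their difference. It ranged from 0 to 1 for the average (Hspb2 without male sham replicate 5) and from 1 to 2 between the sham sexes (with Hspb3 without female sham replicate 9, with Hspe1 without male sham replicate 4). The relations with Hspa1b that passed for Pearson's r ranged from 1 (Hspa1a, without female sham replicate 7) to 3. They were 2, without Hsp90aa1, when male sham replicate 1, 4 or 6 was left out. Over all genes the number called ranged from 0 to 78 in males (78 without male sham replicate 5), from 0 (without female SMC replicate 22 or 23) to 147 (without female sham replicate 9) in females, from 236 to 501 in the average and from 187 to 487 between the sham sexes. A tally was made of 34 log2 fold changes, those called or among the 5 largest rises or falls of a comparison at an unadjusted p under 0.05. Of their 1107 values under an alternative, 1089 kept their direction and side of the threshold, 16 newly passed, 1 no longer passed and 1 reversed, Dnajc8 in the average, at -0.029 under library totals. Over all 63 members, which are mostly nearer to 0, library totals alone turned the sign of 17 in males and 25 in females, and the slow fibre score of 5 and 12. Over all genes edgeR and DESeq2 called 0 and 133 in males, 56 and 268 in females, 0 and 1 for their difference, 388 and 778 in the average and 324 and 575 between the sham sexes.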

Other observations

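Other lists that can move with handling, hormones or time of day were read beside the members. Of 10 glucocorticoid response genes, Fkbp5 among them, 10 were below 0 with SMC in each sex, with median log2 fold changes of -0.81 in males and -1.003 in females, and 6 passed in the average of the sexes, where 1.33% of all genes passed in that direction. With SMC in females alone 1 passed and in males 0, beside 0.219% and 0% of all genes called lower. All 10 were also lower in sham males than in sham females, with 1 passing, where 1.14% of all genes were called lower. The summed CPM of the list ran from 832 to 2108 in sham and from 773 to 1136 in SMC males, and from 1068 to 2415 in sham and from 910.0 to 1119 in SMC females. Of 12 immediate early genes and 2 cold-inducible genes, 0 passed in any comparison (edgeR). At most 2 and 1 of them were at an unadjusted p under 0.05. Of 15 clock genes, 1 was called higher with SMC in females, 1 in the average and 1 in sham males against sham females. The shares of all genes called higher in these were 0.122%, 1.03% and 0.835%. Of the lists for other cells, smooth muscle had 4 of 5 genes higher with SMC in the average at an adjusted p under 0.05 (edgeR), where 1.03% of all genes were higher. Endothelial, adipocyte, fibroblast and tendon, Schwann cell, macrophage and red blood cell markers had 0 called genes in every comparison (edgeR, at most 4 of a list at an unadjusted p under 0.05).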
